A study of Mus musculus with 16 samples.

Results

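The BCL2 family genes described here are 10 regulators of mitochondrial apoptosis: the pro-survival genes Bcl2, Bcl2l1 and Mcl1, the effectors Bax and Bak1, and the BH3-only genes Bmf, Bcl2l11, Bbc3, Bid and Bad. They were taken by gene symbol from a list of names that was set with earlier results of these data known. Each of the 10 matched 1 gene among the 55487 gene identifiers of the count table. RNA sequencing had been run on 16 samples of mouse mammary organoids, which are 3-dimensional cultures of mammary cells grown in a medium with EGF and an Rspo1-Noggin conditioned medium. There were 3 wild-type (WT) samples, 4 with a PIK3CA mutation, 4 with a HER2 mutation and 5 with both mutations, called double mutants here. The title of the series names the variants as HER2 V777L and PIK3CA H1047R, in the receptor tyrosine kinase HER2 and in the catalytic subunit of phosphoinositide 3-kinase. Normal breast was the source of the WT organoids and breast tumor that of every mutant one, so that genotype and tissue of origin cannot be told apart in any comparison with WT. The promoter that drives each mutant gene, the age of the mice, and whether samples of a group came from separate mice were not given in the sources used here, and p-values measure only the spread between these samples.

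Cells die through the mitochondrial route when BAX and BAK1 open the outer mitochondrial membrane and release cytochrome c. BCL2, BCL-XL (from Bcl2l1) and MCL1 hold them back, and BH3-only proteins start the process by binding the pro-survival proteins or by activating the effectors directly. In the mammary gland this machinery shapes the hollow lumen of ducts and acini and removes milk-producing cells after weaning. BMF and BIM (from Bcl2l11) are known for the death of mammary epithelial cells that have lost contact with the matrix, and signalling from HER2 through phosphoinositide 3-kinase and AKT is known to restrain FOXO transcription factors, which can activate Bcl2l11 and Bbc3.

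Because FOXO factors link this signalling to BH3-only genes, the 250 bases upstream of the RefSeq starts of the 10 genes (18 windows, build GRCm38.p6, some of a gene overlapping) were searched on both strands for the FOXO motif GTAAACA. Matches were found in 2 of the 18 windows, and in 3.17% of all 32851 promoter windows of that length. They lie 227 bases before a start of Bcl2l11 (chr2:128125800-128125828, plus strand) and 167 bases before a start of Bbc3 (chr7:16310083-16310111, plus strand, with the motif read on the opposite strand). Both are printed 5′ to 3′ with the motif in capitals, and neither stretch is exonic in the annotation used.
Bcl2l11: aagacactaggGTAAACAcgccggggtgg
Bbc3: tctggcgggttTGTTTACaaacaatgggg
The STAT motif TTCNNNGAA, searched the same way because STAT factors can activate Bcl2l1, was in 0 of the 18 windows and in 7.02% of all windows, so no match of it overlapped a FOXO match in these genes. The gene that varied most between genotypes was Bmf (chromosome 2, 118528757 to 118549687, minus strand, GRCm38), and the 249 bases directly upstream of its start, at chr2:118549688-118549936 on the minus strand, are shown as context. This stretch has a GC content of 53.8% and holds neither motif, which says only that these letters are not in this window.
Bmf: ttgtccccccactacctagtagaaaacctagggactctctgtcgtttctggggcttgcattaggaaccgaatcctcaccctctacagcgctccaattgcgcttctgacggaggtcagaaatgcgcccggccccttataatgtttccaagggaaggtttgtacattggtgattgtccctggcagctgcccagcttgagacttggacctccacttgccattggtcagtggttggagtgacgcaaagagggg

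The libraries held between 45545182 and 64168308 counts each, so that 3 counts correspond to 0.0477 to 0.0668 CPM (counts per 1000000 counts of the library), far under the level of every one of the 10 genes. Erbb2, the mouse gene of HER2, averaged 3600 ± 803 CPM (SD, n = 4) in HER2 mutants and 2030 ± 639 CPM (n = 5) in double mutants, against 156 ± 13.1 CPM in WT (n = 3). Luminal markers (Krt8, Krt18, Krt19, Epcam) summed to 1320 to 3890 CPM over all samples and basal markers (Krt5, Krt14, Acta2, Trp63) to 118 to 1260 CPM, with no marker of either list at 0. Immune markers summed to 487 to 2960 CPM in WT against 9.25 to 177 CPM in all mutant samples, and fibroblast markers to 287 to 1570 CPM against 25.5 to 573 CPM. At most 1 of the 6 immune markers was at 0 in a sample, and no fibroblast marker was. Endothelial and adipocyte markers summed to at most 4.15 and 14.1 CPM in WT and 1.45 and 1.19 CPM in mutants. Their part in the differences from WT was not tested, and in these bulk samples a smaller share of a cell type and less RNA per cell cannot be told apart. Double mutants 2 and 3 stood apart from the other double mutants on the second principal component of log2 CPM (-35.6 and -10.9, against 33.6 to 47.8), and HER2 mutant 1 had the highest Bax and the lowest Bcl2l11, Mcl1 and Bid of all 16 samples. Results that rest on these 3 libraries are also given without them. HER2 mutants 3 and 4 were left out only singly, although they too stood apart from their group. HER2 mutant 4 lay at -27.2 on the second component (others -79.9 to -67.9), and HER2 mutant 3 at 60.7 on the first (others -9.33 to 5.61). The log2 contrast of short with long genes was 0.27 and 0.18 in double mutants 1 and 2, against -0.11 to 0.04 elsewhere. For GC-rich against GC-poor genes it was -0.2 and -0.16, against -0.09 to 0.17.

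Among the 10 genes, Bmf was the gene that set HER2 mutant organoids apart. It averaged 67.2 ± 20.1 CPM (SD, n = 4) in HER2 mutants against 16.9 ± 1.47 CPM (n = 3) in WT and 22.4 ± 2.76 CPM (n = 4) in PIK3CA mutants. In double mutants, which carry a HER2 mutation too, it averaged 15.4 ± 5.47 CPM (n = 5). Bbc3, which encodes PUMA, was higher in HER2 mutants and in double mutants than in WT. None of the other 8 genes passed the threshold in any comparison, an adjusted p under 0.05 by edgeR's quasi-likelihood test over 24252 genes.

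In HER2 mutants against WT, 2 of the 10 genes rose and 0 fell, where 10.4% of all genes tested were called (4.75% higher). In double mutants against WT, 1 of 10 rose, where 11.8% of all genes were called (5.03% higher). In PIK3CA mutants against WT, 0 of 10 were called by edgeR, by DESeq2 or by limma, with 2 at an unadjusted p under 0.05, where 4.52% of all genes were called. With only WT and PIK3CA mutants in the edgeR fit 3 were called higher, Bak1, Bmf and Bbc3, where 4136 genes were called against 1096. Between mutants, 1 of 10 fell in double mutants against HER2 mutants (2.5% of all genes called, 1.47% lower), and 1 of 10 rose in HER2 against PIK3CA mutants (4.41% called, 2.21% higher). In double mutants against PIK3CA mutants, 0 of 10 were called by any of the 3 tools, with 4 at an unadjusted p under 0.05 in edgeR, where 0.672% of all genes were called. The median log2 fold change of the 10 genes lay between -0.1 and 0.26 in these 6 comparisons, and that of all genes between -0.03 and 0.07. The comparisons with WT share the WT samples, and those with a single mutant share that group. Where groups of a gene did not overlap, this is given below as a description. The share of all genes without overlap is not given here. In PIK3CA mutants against WT, 4 of the 10 genes did not overlap although 0 were called.

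**Figure D1:**
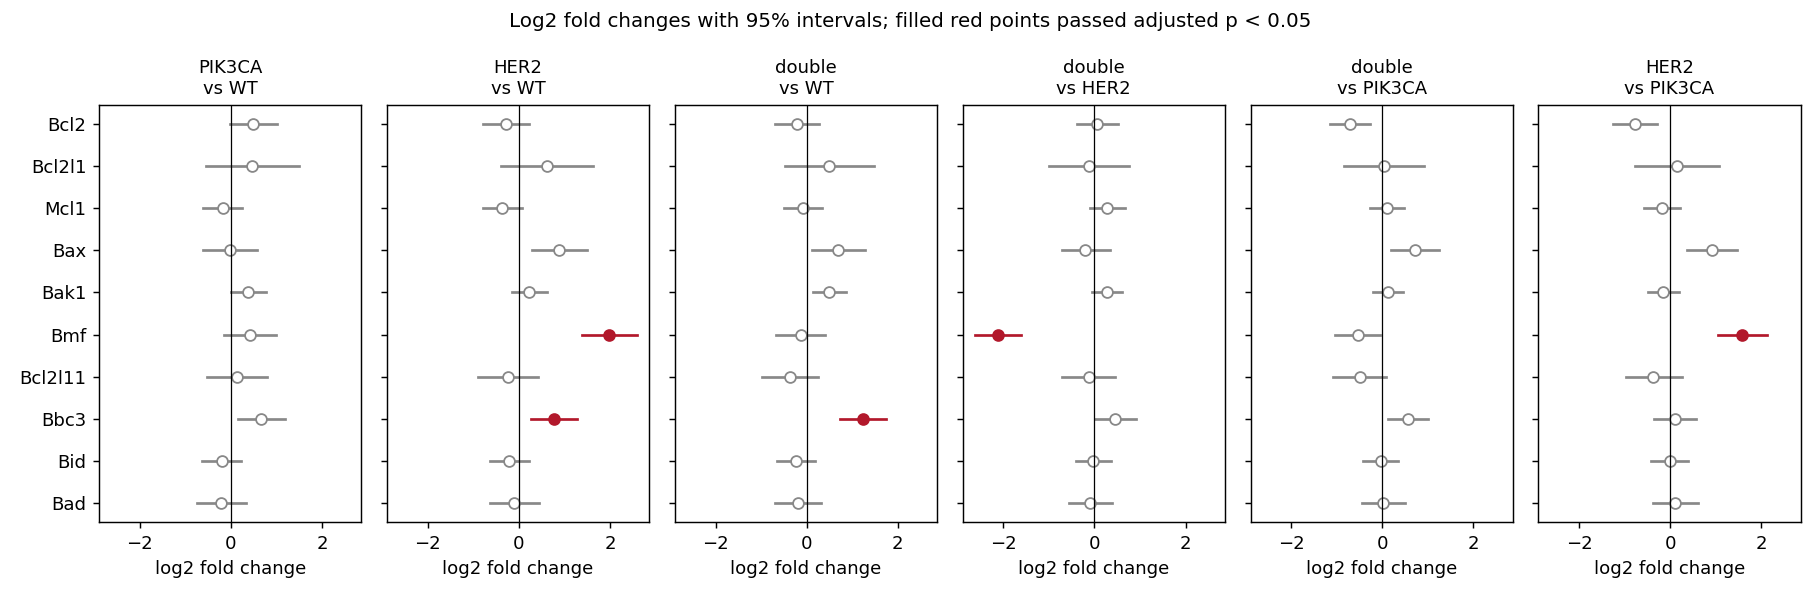
Log2 fold change of each of the 10 genes (rows) in 6 comparisons (panels), with 95% intervals as bars and filled red points for an adjusted p under 0.05 by edgeR. The red points are Bmf (1.99, -2.12 and 1.58 in HER2 vs WT, double vs HER2 and HER2 vs PIK3CA) and Bbc3 (0.77 and 1.23 in HER2 vs WT and double vs WT).

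Among the pro-survival genes, 0 of 3 were called in any comparison. Bcl2 (chromosome 1, 106538178 to 106714274, minus strand), the founding member of the family, measured 85.6, 66.8 and 97.6 CPM in WT and 121, 107, 144 and 97 CPM in PIK3CA mutants. It measured 57.9, 54.4, 66 and 96.6 CPM in HER2 mutants and 92.7, 53.7, 54.1, 80.2 and 78.5 CPM in double mutants. All HER2 mutants and all double mutants were below all PIK3CA mutants, although the closest pair differed only by 96.6 against 97 CPM, and every mutant group overlapped WT. The log2 difference of HER2 from PIK3CA mutants was -0.77 (95% interval -1.25 to -0.3, adjusted p = 0.0546 by edgeR). It was called by DESeq2, by limma, without HER2 mutant 4, and without double mutants 2 and 3 and HER2 mutant 1 together. HER2 mutant 4 was the highest of its group for Bcl2, and the libraries removed together were picked after the data were seen. These removals therefore cannot decide whether the groups differ. The log2 difference of double from PIK3CA mutants was -0.71 (-1.15 to -0.26, adjusted p = 0.146 by edgeR), and no alternative called it. An antisense transcript, D630008O14Rik, covers 6.09% of the exonic bases of Bcl2, and whether the counting used strand was not given in the sources used here.

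Bcl2l1 (chromosome 2, 152780668 to 152831728, minus strand), the gene of BCL-XL, was the most variable of the 10 within the groups that carry the HER2 mutation. It measured 148, 80.8 and 145 CPM in WT, 142, 172, 178 and 198 CPM in PIK3CA mutants, 111, 192, 333 and 130 CPM in HER2 mutants, and 97, 334, 261, 99.8 and 88.1 CPM in double mutants. The SD was 52.4% and 64.8% of the mean in HER2 and double mutants, against 13.4% in PIK3CA mutants. The 2 high double mutants were replicates 2 and 3, the libraries that stood apart, and the other 3 were below 2 of the 3 WT samples. With all samples the log2 difference of double mutants from WT was 0.5 (95% interval -0.48 to 1.48), and without these 2 libraries it was -0.39, neither past the threshold. Without HER2 mutant 1 as well, double mutants were lower than HER2 mutants by a log2 difference of -1.2 (adjusted p = 0.0302 by edgeR), against -0.12 with all samples. These libraries were picked for removal after the data were seen. For this gene they are the lowest HER2 mutant and the 2 highest double mutants, so this p-value cannot decide whether the groups differ.

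Mcl1 (chromosome 3, 95658788 to 95663176, plus strand) encodes a short-lived pro-survival protein. It measured 121, 117 and 155 CPM in WT, 104, 126, 105 and 129 CPM in PIK3CA mutants, 67.2, 127, 111 and 104 CPM in HER2 mutants, and 105, 139, 154, 116 and 106 CPM in double mutants. The groups overlapped in every comparison, and the log2 differences lay between -0.36 and 0.28.

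**Figure D2:**
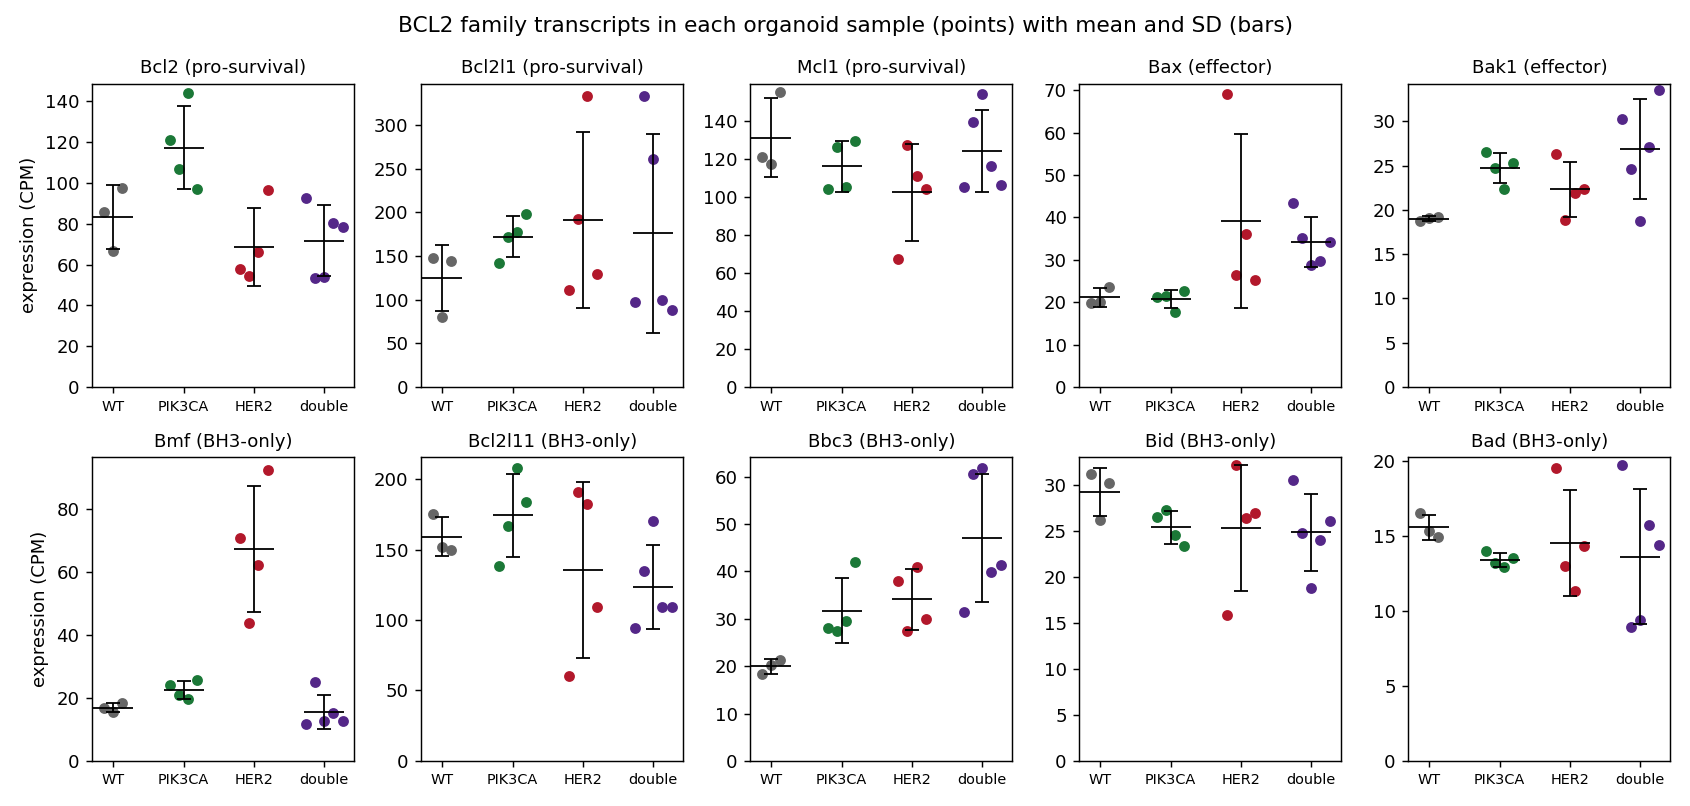
Expression in CPM (y axes, each from 0) of the 10 genes in every sample (points), by genotype, with the mean (wide line) and the SD (bars). The 4 HER2 mutants lie between 43.8 and 92.1 CPM for Bmf, above every other sample, and the Bcl2l1 panel shows the 2 high double mutants at 334 and 261 CPM.

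Of the effectors, which form the pores in the mitochondrial membrane, 0 of 2 were called. Bax (chromosome 7, 45461697 to 45466898, minus strand) measured 19.8, 20 and 23.7 CPM in WT and 21.3, 21.4, 17.8 and 22.6 CPM in PIK3CA mutants. It measured 69, 26.4, 36.1 and 25.3 CPM in HER2 mutants and 43.4, 35.2, 28.7, 29.7 and 34.2 CPM in double mutants. Every sample with the HER2 mutation was above every sample without it, but how common this is over all genes is not given here. The log2 differences from WT were 0.89 in HER2 mutants (SE 0.28, adjusted p = 0.0547 by edgeR) and 0.69 in double mutants (SE 0.268, adjusted p = 0.106), and from PIK3CA mutants 0.92 (adjusted p = 0.0529) and 0.72 (adjusted p = 0.22). HER2 mutant 1, at 69 CPM, carried much of the first: without it the difference from WT was 0.47. Of the 7 fits that each leave out 1 sample, 2 called Bax in HER2 mutants against WT, and so did DESeq2 (adjusted p = 0.024), upper-quartile scaling (0.0392) and an offset for GC content and length (0.0331).

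Bak1 (chromosome 17, 27019810 to 27029009, minus strand) measured 18.7, 19.1 and 19.2 CPM in WT, the narrowest spread, relative to the mean, of any of the 10 genes in any genotype. It measured 26.5, 24.7, 22.4 and 25.3 CPM in PIK3CA mutants, 26.3, 18.8, 21.9 and 22.3 CPM in HER2 mutants, and 30.2, 24.6, 18.7, 27.1 and 33.5 CPM in double mutants. All PIK3CA mutants were above all WT samples (log2 difference 0.38, 95% interval 0 to 0.76, adjusted p = 0.271 by edgeR), and 4 of 5 double mutants were. The double mutants differed from WT by 0.5 (0.14 to 0.86, adjusted p = 0.0641 by edgeR), and DESeq2 called it with all samples (adjusted p = 0.0309). Without double mutants 2 and 3 the difference was 0.67 (adjusted p = 0.00904 by edgeR). Those were the lowest double mutants for Bak1 and were picked after the data were seen. The p-value without them therefore cannot decide whether the groups differ. Part of the exonic sequence of Bak1 is shared with Ggnbp1 on the other strand, and 12.2% of that of Bax with Gm45808, which had 0 counts in these samples.

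Bmf encodes a BH3-only protein that is held at the cytoskeleton and released when cells lose attachment. It measured 16.9, 15.4 and 18.3 CPM in WT, 23.9, 20.8, 19.5 and 25.5 CPM in PIK3CA mutants, 70.8, 43.8, 62.2 and 92.1 CPM in HER2 mutants, and 11.7, 24.9, 12.5, 15.3 and 12.7 CPM in double mutants. The 4 HER2 mutants were above the other 12 samples with a wide gap, all PIK3CA mutants were above all WT samples, and 4 of the 5 double mutants (11.7 to 15.3 CPM) were below all WT samples, with replicate 2 above them.

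In HER2 mutants Bmf was 3.99 times the WT level (log2 fold change 1.99, SE 0.276, adjusted p = 0.000759 by edgeR, higher in 4 of 4 samples than in any WT sample) and 2.99 times the PIK3CA mutant level (1.58, SE 0.245, adjusted p = 0.0028). The double mutant level was 4.36-fold lower than that of HER2 mutants (log2 fold change -2.12, SE 0.231, adjusted p = 0.000595). The difference of the double mutants from WT did not pass the threshold, with a log2 difference of -0.13 (95% interval -0.67 to 0.41), which was -0.37 (adjusted p = 0.28) without double mutant 2 and -0.05 without double mutant 1, the limits over the 8 fits with 1 sample left out. In PIK3CA mutants the difference from WT was 0.41 (-0.16 to 0.98, adjusted p = 0.471), called in 1 of 15 alternatives, with only the groups compared (0.0469), and double mutants were lower than PIK3CA mutants by a log2 difference of -0.54 (-1.03 to -0.05, adjusted p = 0.335). The departure from additive log2 differences between the genotypes, tested as an interaction by edgeR, was -2.54 (SE 0.353, adjusted p = 0.00522). WT enters this contrast, so genotype and tissue of origin cannot be told apart in it. Bmf was the 1 of the 10 genes called there, where 1.06% of all genes were called (0.544% lower).

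The 4 calls of Bmf held in every alternative computed and in every fit with 1 sample left out. Without double mutants 2 and 3 the difference between double and HER2 mutants was -2.34 (adjusted p = 0.000353). Bmf overlaps no other annotated gene, and its exonic length is 5253 bases. Among HER2 mutants, Bmf was 70.8 CPM in replicate 1, where basal markers summed to 816 CPM, and 43.8 to 92.1 CPM in the other 3, where they summed to 118 to 233 CPM. Basal markers summed to 463 to 925 CPM in double mutants and fibroblast markers to 25.5 to 57.8 CPM there against 33.1 to 573 CPM in HER2 mutants. Immune markers summed to 12.8 to 68 CPM in double mutants against 9.25 to 177 CPM in HER2 mutants, and luminal markers to 2020 to 3890 CPM against 1320 to 2110 CPM. In this comparison 2 of 4 luminal markers (Krt8 by 0.96 and Krt19 by 1.34) and 1 of 4 basal markers (Krt5 by 2.73) were called higher by edgeR, 2 of 5 immune markers tested (Lyz2 by -8.11 and Ptprc by -4.1) lower, and 0 of 4 fibroblast markers, with 2 of these at an unadjusted p under 0.05. Their part in the difference of Bmf was not tested.

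Bbc3 (chromosome 7, 16308393 to 16318205, plus strand) encodes PUMA, a potent BH3-only protein known as a target of p53 and of FOXO3. It measured 18.3, 20.2 and 21.4 CPM in WT, 28, 27.4, 29.6 and 41.9 CPM in PIK3CA mutants, 38, 27.5, 40.9 and 29.9 CPM in HER2 mutants, and 31.5, 60.6, 61.9, 39.9 and 41.3 CPM in double mutants. Every mutant sample was above the 3 WT samples, and the mutant groups overlapped each other. Bbc3 was 2.35 times the WT level in double mutants (log2 fold change 1.23, SE 0.231, adjusted p = 0.00269 by edgeR) and 1.71 times in HER2 mutants (0.77, SE 0.235, adjusted p = 0.0476). In PIK3CA mutants the log2 difference was 0.67 (95% interval 0.16 to 1.18, adjusted p = 0.136).

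The 2 highest samples were double mutants 2 and 3, and without them the call in double mutants held at 0.91 (adjusted p = 0.0123). The call in HER2 mutants held in 2 of the 7 fits with 1 sample left out. It was lost without each WT sample in turn and without HER2 mutant 1 or 3, with log2 fold changes of 0.67 to 0.86 over the 7 fits. Double mutants differed from HER2 mutants by 0.46 (0.02 to 0.91, adjusted p = 0.243) and from PIK3CA mutants by 0.57 (0.12 to 1.01, adjusted p = 0.254), and the interaction was -0.2 (-0.87 to 0.47).

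The remaining BH3-only genes were called in 0 comparisons. Bcl2l11 (chromosome 2, 128126038 to 128162547, plus strand), the gene of BIM, measured 175, 152 and 150 CPM in WT, 138, 167, 208 and 184 CPM in PIK3CA mutants, 60.2, 191, 182 and 109 CPM in HER2 mutants, and 94, 135, 170, 109 and 109 CPM in double mutants. HER2 mutants held both the lowest sample and one of the highest, and the log2 difference of double mutants from WT was -0.37 (95% interval -0.99 to 0.26). Unlike Bmf, Bcl2l11 showed no separation of HER2 mutants from the rest, and its difference there from WT was -0.23 (-0.89 to 0.43).

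Bid (chromosome 6, 120891930 to 120916853, minus strand), which carries death receptor signals to mitochondria, ranged from 15.8 to 32.1 CPM over all samples, with group means of 29.2 ± 2.6 (SD, n = 3), 25.4 ± 1.82 (n = 4), 25.3 ± 6.82 (n = 4) and 24.8 ± 4.2 CPM (n = 5) in WT, PIK3CA, HER2 and double mutants. Bad (chromosome 19, 6941861 to 6951899, plus strand), which AKT is known to hold inactive by phosphorylation, ranged from 8.94 to 19.7 CPM, with group means of 15.6 ± 0.823, 13.4 ± 0.468, 14.5 ± 3.54 and 13.6 ± 4.53 CPM in the same order. All 4 PIK3CA mutants were below all WT samples for Bad (log2 difference -0.21, -0.75 to 0.32), and the 2 lowest samples were double mutants 2 and 3, at 8.94 and 9.38 CPM. Shared exonic bases make both less certain: 17.7% of those of Bid lie in Bcl2l13 and 20.5% of those of Bad in Gpr137, on the other strand.

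Per kilobase of exon, the level in WT was highest for Mcl1 (38.4 CPM per kb) and Bcl2l1 (27.1), followed by Bcl2l11 (19.8), Bax (13.4), Bbc3 (9.41), Bcl2 (9.1), Bid (8.22), Bak1 (7.89), Bad (6.08) and Bmf (3.21). Mcl1 and Bcl2l1 did not differ beyond their SDs, nor did neighbours from Bbc3 down to Bak1, whereas Bmf lay below Bad by more than the SDs of both. Bmf was also the lowest of the 10 in PIK3CA mutants (4.27 CPM per kb) and in double mutants (2.94), and was sixth in HER2 mutants (12.8). It lay below Bad by more than the SDs of both in PIK3CA mutants, but not in double mutants. In HER2 mutants it did not differ from its neighbours Bbc3 and Bak1 beyond their SDs. Bbc3 was the third in double mutants (22.1 CPM per kb), within 1 SD of Bax (21.7). The level of Bmf per length was 0.327 to 0.401 times that of Bcl2 in WT, 0.236 to 0.458 times in PIK3CA mutants, 1.4 to 2.13 times in HER2 mutants and 0.22 to 0.81 times in double mutants. In HER2 mutants alone it exceeded that of Bcl2, in 4 of 4 samples.

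**Figure D3:**
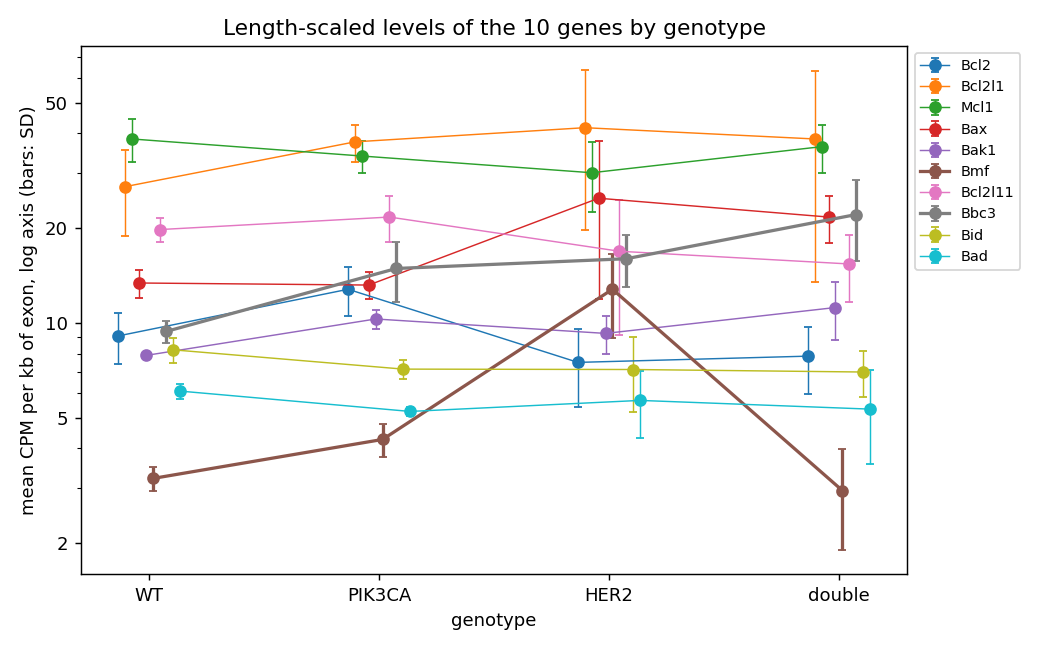
Mean level per length (CPM per kb of exon, log axis) of the 10 genes in each genotype, with SD bars and lines joining the same gene; genotypes have no order. Bmf goes from 3.21 in WT to 12.8 in HER2 mutants and 2.94 in double mutants, and Bbc3 from 9.41 in WT to 22.1 in double mutants.

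The 3 genes whose log2 CPM followed Bmf most closely over the 16 samples, of 11742 genes compared, were Lpgat1 (Pearson r = 0.896), Ahcyl2 (r = 0.872) and Zdhhc9 (r = 0.868). These values are descriptions across samples that share genotypes and libraries. Lpgat1, an acyltransferase gene of lipid metabolism, averaged 41.4, 63.1, 128 and 52.9 CPM in WT, PIK3CA, HER2 and double mutants. Its HER2 mutants (89.6 to 196 CPM) also lay above all other samples, and so did those of Zdhhc9 (88.3 to 154 CPM). For Ahcyl2 the HER2 mutants (70.7 to 122 CPM) overlapped the PIK3CA mutants (64 to 73.9 CPM). The 3 genes were picked for likeness to Bmf in these same samples, so a shared pattern was built into the choice.

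Among 15 other BCL2 family genes, of which 14 were tested, 0 rose and 2 fell in PIK3CA mutants (Bcl2a1a and Bcl2a1b), 0 rose and 2 fell in HER2 mutants (Bcl2a1b and Bik), and 1 rose (Bnip3) and 3 fell (Bcl2a1a, Bcl2a1b and Bik) in double mutants, each against WT. The shares of all genes called in these comparisons were 4.52%, 10.4% and 11.8%. Bik, another BH3-only gene, fell in HER2 mutants (log2 fold change -1.31, adjusted p = 0.00589 by edgeR) and in double mutants (-1.04, adjusted p = 0.0115). It measured 15.8 to 23.5 CPM in WT, 5.86 to 12.5 CPM in HER2 mutants and 7.91 to 12.9 CPM in double mutants, with no overlap of either with WT. The call in double mutants was lost without WT sample 1 or 3 (adjusted p up to 0.0742), and that in HER2 mutants with only the groups compared in the fit (0.0718). Bnip3, a gene known to respond to low oxygen, rose in double mutants (1.77, adjusted p = 0.038) from 8.53 to 23.8 CPM in WT to 18.3 to 83.3 CPM. Without double mutants 2 and 3 its difference was 1 (adjusted p = 0.212), and the call was also lost without either of them alone and without WT sample 1 or 3.

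Bcl2a1a and Bcl2a1b, near-identical pro-survival genes between which reads may be split, had 17 to 75 and 16 to 71 counts in WT samples and at most 12 and 3 counts in any mutant sample. They are known from blood cells, and they were lower in the groups where the immune markers were lower. Pmaip1, the gene of the BH3-only protein NOXA, rose in HER2 against PIK3CA mutants (2.51, adjusted p = 0.0374), at 1.41 to 9.39 CPM against 0.372 to 1.55 CPM. That call was lost without HER2 mutant 2 or 3, or without PIK3CA mutant 1, 2 or 3. It was also lost with the replicate block and with only the groups compared, with an adjusted p of up to 0.115 over all alternatives.

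Downstream of mitochondria, 0 of 18 genes were called in PIK3CA mutants by edgeR (2 at an unadjusted p under 0.05), 2 rose and 0 fell in HER2 mutants, and 4 rose and 0 fell in double mutants, each against WT, where 4.52%, 10.4% and 11.8% of all genes were called. Vdac1, a channel of the outer mitochondrial membrane, Apaf1, the scaffold of the apoptosome, and Cycs, the gene of cytochrome c, rose in double mutants by 0.86, 0.75 and 0.72 (adjusted p = 0.0114, 0.0375 and 0.0426 by edgeR). Without double mutants 2 and 3 these became 0.6, 0.47 and 0.86 (adjusted p = 0.0505, 0.155 and 0.027). With 1 sample left out, Cycs was called in 1 of 8 fits (adjusted p up to 0.193) and Apaf1 in 2 of 8 (up to 0.155 over all alternatives), each lost without any 1 WT sample and without several of the double mutants, and Vdac1 was called in 6 of 8, lost without WT sample 1 or 3 (up to 0.0824). Htra2, a mitochondrial protease gene, rose in HER2 against PIK3CA mutants (0.93, adjusted p = 0.0115 by edgeR), a call lost with only the groups compared in the fit (0.0558). In HER2 against PIK3CA mutants 1 of 18 rose and 1 fell, where 4.41% of all genes were called. The gene that fell there, Casp9, the initiator caspase of the mitochondrial route, was outside the naming rule and is named after its values were seen (-0.52, adjusted p = 0.0341).

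In the death receptor route, 9 of 10 genes were tested. Tnfsf10, the gene of the death ligand TRAIL, moved opposite to Bmf in HER2 mutants. It measured 22.3, 21 and 8.32 CPM in WT, 31.3, 27, 23.5 and 19 CPM in PIK3CA mutants, 3.58, 4.26, 4.72 and 8.43 CPM in HER2 mutants, and 29.2, 13.2, 18.9, 31.2 and 35.1 CPM in double mutants. It fell in HER2 mutants against WT (-1.71, adjusted p = 0.0112 by edgeR), was lower there than in PIK3CA mutants (-2.26, adjusted p = 0.00384), and double mutants exceeded HER2 mutants (2.28, adjusted p = 0.00532). Its interaction was 1.73 (adjusted p = 0.121). WT sample 3 lay within the HER2 range, and the first call was lost without WT sample 1 and with only the groups compared (adjusted p up to 0.0754).

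Tnfrsf10b, a receptor of TRAIL, rose in HER2 mutants (1.32, adjusted p = 0.00493 by edgeR) and double mutants (1.21, adjusted p = 0.00452), at 9.91 to 13.3 CPM in WT, 20.9 to 33.7 CPM in HER2 mutants and 15.7 to 36.9 CPM in double mutants. Casp8, the initiator caspase of this route, was higher in HER2 than in PIK3CA mutants (0.82, adjusted p = 0.0222 by edgeR). That call was lost when any 1 PIK3CA mutant was left out, with the replicate block and with only the groups compared (adjusted p up to 0.0791). Of the 9 genes, 0 were called in PIK3CA mutants against WT by edgeR (3 at an unadjusted p under 0.05). Against WT, 1 rose and 1 fell in HER2 mutants, and 1 rose and 0 fell in double mutants. The shares of all genes called in these comparisons were 4.52%, 10.4% and 11.8%.

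**Figure D4:**
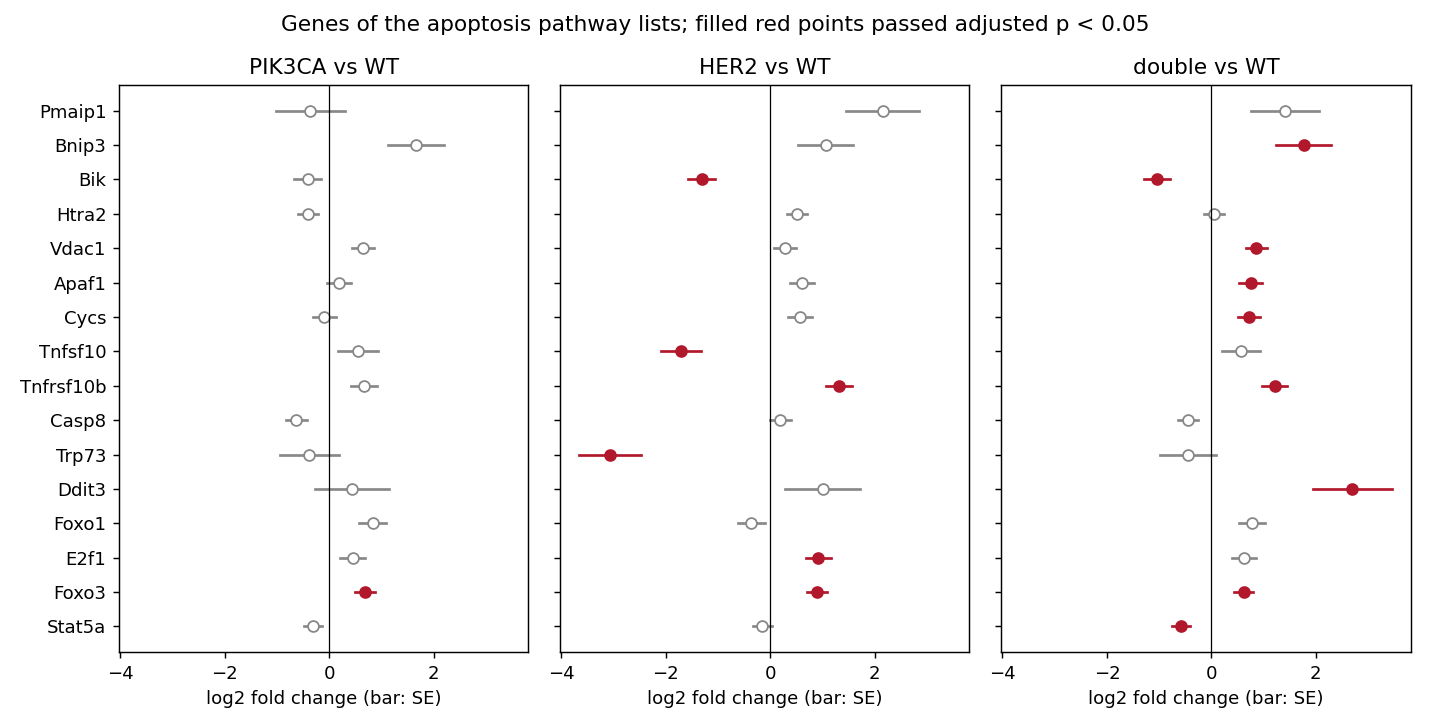
Log2 fold change against WT (bars: SE) of 16 genes of the apoptosis pathway lists in PIK3CA, HER2 and double mutants, with filled red points for an adjusted p under 0.05 by edgeR; Bcl2a1a and Bcl2a1b, with few counts, are not drawn. Tnfsf10 and Trp73 lie at -1.71 and -3.07 in HER2 mutants and Bik at -1.31, while Tnfrsf10b lies at 1.32.

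Of 12 transcription factors known to act on BCL2 family genes, 1 rose in PIK3CA mutants, 2 rose and 1 fell in HER2 mutants, and 2 rose and 1 fell in double mutants, against WT, where 4.52%, 10.4% and 11.8% of all genes were called. Foxo3 rose in all 3, by 0.69, 0.9 and 0.62 (adjusted p = 0.0447, 0.00797 and 0.0336 by edgeR), from 198 to 206 CPM in WT to 278 to 392, 316 to 435 and 236 to 387 CPM. The calls in PIK3CA and double mutants were less stable: the first was lost when any 1 sample was left out, and the second became 0.37 (adjusted p = 0.156) without double mutants 2 and 3 and was also lost without either of them or any 1 WT sample.

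Foxo1 was lower in HER2 than in PIK3CA mutants (-1.19, adjusted p = 0.0131 by edgeR), at 118 to 220 CPM against 368 to 439 CPM. Double mutants exceeded HER2 mutants (1.14, adjusted p = 0.0194 by edgeR), at 267 to 552 CPM. This call was lost without double mutant 4 or 5, with the replicate block and with only the groups compared (adjusted p up to 0.125). Trp73, the gene of the p53 relative p73, fell in HER2 mutants against WT (-3.07, adjusted p = 0.00529 by edgeR), at 0.482 to 1.85 CPM against 3.95 to 11.1 CPM. Double mutants exceeded HER2 mutants for Trp73 (2.63, adjusted p = 0.0225). That call was likewise lost without double mutant 4 or 5, with the replicate block and with only the groups compared (adjusted p up to 0.117). Basal markers moved with Trp73 only in part, at 118 to 816 CPM in HER2 mutants against 369 to 902 CPM in WT. Of these markers 1 of 4 was called lower by edgeR, Krt5 (-2.89), but not Acta2 (-1.01), Trp63 (-0.85) or Krt14 (-0.03). HER2 mutant 1, with basal markers at 816 CPM, had Trp73 at 1.09 CPM. The part of basal markers was not tested.

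E2f1, a cell cycle factor, rose in HER2 mutants (0.92, adjusted p = 0.0252 by edgeR), a call lost without HER2 mutant 1 or without WT sample 1 or 3. It was also lost with the replicate block and with only the groups compared (adjusted p up to 0.134 over all alternatives). Stat5a, a factor of milk gene expression, fell in double mutants (-0.58, adjusted p = 0.0351), where its difference was -0.46 (adjusted p = 0.126) without double mutants 2 and 3, and the call was also lost without double mutant 1, 2 or 3 or WT sample 1 or 3. Ddit3, the gene of the stress factor CHOP, rose in double mutants (2.7, adjusted p = 0.0295), at 68.7 and 178 CPM in double mutants 2 and 3 and 18.2 to 27.4 CPM in the other 3, against 6.54 to 11.8 CPM in WT. Without those 2 libraries its difference was 1.16 (adjusted p = 0.165), and the call was also lost without double mutant 3 alone or any 1 WT sample.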

How the data were processed

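RNA had been extracted from 16 organoid samples with a column kit and made into libraries with a SMARTER mRNA-seq kit, per the labels' protocols. The submitters' processing notes name bcl2fastq 2.20, STAR 2.0.4b, Subread, featureCounts 1.4.5, DESeq2 1.33.5 and the mm10 genome. The annotation and the use of strand were not given in the sources used here. The authors deposited whole-number read counts per gene, with no normalization, and a second table of normalized signal values, which equalled each count divided by a median-of-ratios size factor (largest relative difference 5.49e-10). Of 55774 entries, 287 repeated an identifier with identical values and were dropped, which left 55487.

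Counts were tested with edgeR 4.0.16 (R 4.3.3): filterByExpr kept 24252 genes, all 10 BCL2 family genes among them, with TMM scaling and 1 quasi-likelihood fit of the 16 samples by genotype. The test was two-sided, with Benjamini-Hochberg adjustment over all genes tested within a comparison and a threshold of 0.05. The 7 contrasts were each genotype against each other (6) and the interaction. SEs come from the F statistic and 95% intervals from 12 residual degrees of freedom, without the moderation of the test. Log2 CPM used a prior count of 2. The procedure was tested on simulated counts. Alternatives were other scalings, DESeq2 1.42.0, limma 3.58.1 on log2(normalized value + 1), no filter, a replicate block, only the groups compared and leaving out each sample. Those chosen after seeing the data were leaving out double mutants 2 and 3, also leaving out HER2 mutant 1, and an offset for GC content and length.

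The 10 genes and the pathway and marker lists were chosen with earlier results of these data known. From each pathway list, genes called in any pair of genotypes were named, at most 6 per list by the largest change, and a few genes of the lists are not reported here. Genes like Bmf were the 3 with the highest Pearson correlation. Positions come from GENCODE M21 (GRCm38) and promoter sequences from RefSeq (GRCm38.p6). No protein sequence was used here.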

Additional observations from a re-analysis of the deposited data

Results flagged for a closer look

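Within genotype groups of 4 or 5 samples, 30 groups of values of the 10 genes were examined for a sample far from the others, and 2 were found, where chance alone gives about 1 in 20 groups. Bmf measured 24.9 CPM in double mutant 2 and 11.7 to 15.3 CPM in the other 4 double mutants, a gap of 0.732 of the whole range (past Dixon's limit for 5 samples). Bbc3 measured 41.9 CPM in PIK3CA mutant 4 and 27.4 to 29.6 CPM in the other 3, a gap of 0.845 of the range (past that for 4 samples). For Bmf the difference of double from HER2 mutants departed from that of PIK3CA mutants from WT. The interaction was -2.54 on the log2 scale by edgeR (adjusted p = 0.00522). WT enters this contrast, so genotype and tissue of origin cannot be told apart in it.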

How the results depend on the processing

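The 4 calls of Bmf were made under every alternative computed, with values of 1.81 to 2.15 in HER2 mutants against WT, -2.36 to -1.93 in double against HER2 mutants, 1.39 to 1.74 in HER2 against PIK3CA mutants and -2.78 to -2.35 for the interaction. The call of Bbc3 in HER2 mutants against WT was lost with no low-count filter (adjusted p = 0.0586), with the replicate block (0.0859) and with only the groups compared in the fit (0.0708), all by edgeR. Apart from the fits that leave out 1 sample, the 10 genes gave 591 values with the same direction and side of the threshold, 24 that passed it only under the alternative, 3 that no longer did and 32 of the other sign. Of 31 calls of the genes named from the pathway lists, 11 were made under every alternative and 14 in every fit with 1 sample left out, and 0 changed sign. Groups of 3 to 5 samples limit every comparison. Those with double mutants are also limited by double mutants 2 and 3, which stood apart on the second principal component. Those with HER2 mutants are limited by HER2 mutant 1, which was extreme for Bax, Bcl2l11, Mcl1 and Bid. The cause of each change below was not tested.

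Counts of the 10 genes called moved as follows. In PIK3CA mutants against WT 3 (Bak1, Bmf and Bbc3) were called with only the groups compared. In HER2 mutants against WT 1 was called with no filter, with the replicate block and with only the groups compared, and 1 to 3 with 1 sample left out. Bax was called there in addition with upper-quartile scaling, DESeq2 and the GC and length offset. In double mutants against WT 2 were called with upper-quartile scaling, DESeq2, only the groups compared, the GC and length offset, and without double mutants 2 and 3, 3 without HER2 mutant 1 as well, and 1 to 2 with 1 sample left out. In double against HER2 mutants 3 were called without those 3 libraries. In double against PIK3CA mutants 1 was called with only the groups compared and without the 3 libraries. In HER2 against PIK3CA mutants 2 were called with upper-quartile scaling, limma, the offset and without the 3 libraries, 3 with DESeq2, and 1 to 3 with 1 sample left out. For the interaction 2 were called without the 3 libraries.

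The replicate number from the titles was checked as a pairing. Same-numbered samples correlated in their deviations from the group means at -0.163 to 0.273, over 0.1 for every pair in 0 of the 6 comparisons, and at most 2 samples of a group correlated best with their own number. The nearest to a pairing was double against HER2 mutants, with 3 of 4 same-numbered pairs over 0.1 (mean 0.157, against -0.0408 for other pairs), a hint from the data only, since nothing in the labels ties the numbers, and the samples were treated as sharing only a number. The replicate block changed the sign of Bax in PIK3CA mutants against WT (0.03), of Bcl2l1 in double against HER2 mutants (0.03) and of Bad in double against PIK3CA mutants (-0.06), none called. Over all genes the block called 1625 in HER2 mutants against WT, 118 and 19 in double against HER2 and PIK3CA mutants, 552 in HER2 against PIK3CA mutants and 35 for the interaction.

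The other values of changed sign were uncalled in both fits. Upper-quartile scaling gave Bcl2 0 in double against HER2 mutants and Bid 0.05 in HER2 against PIK3CA mutants, and the offset gave Bid 0.03 there. Limma gave Bid 0 in double against HER2 mutants, and Bcl2l1 -0.2 and Bad -0.04 in double against PIK3CA mutants. Without double mutants 2 and 3, Bcl2, Bcl2l1 and Bad were 0.01, -0.39 and 0.09 in double mutants against WT, Bid and Bad 0.09 and 0.19 against HER2 mutants, Bcl2l1, Mcl1 and Bid -0.86, -0.09 and 0.08 against PIK3CA mutants, and Bak1 0.06 for the interaction. Without HER2 mutant 1 as well, the values against WT and PIK3CA mutants were the same. Then Bcl2l11 was 0.01 in HER2 mutants against WT, Mcl1, Bax and Bad were -0.07, 0.29 and 0.37 in double against HER2 mutants, Bid and Bad 0.17 and -0.06 in HER2 against PIK3CA mutants, and Bax and Bak1 0.31 and 0.15 for the interaction.

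With 1 sample left out, signs changed within these ranges. In PIK3CA mutants against WT Bax ranged from -0.07 to 0.06. In HER2 mutants against WT Bcl2l11 ranged from -0.44 to 0.01 and Bad from -0.27 to 0. In double mutants against WT Mcl1 ranged from -0.17 to 0.06. In double against HER2 mutants Bcl2 ranged from -0.04 to 0.27, Bcl2l1 from -0.49 to 0.29, Bax from -0.36 to 0.23, Bcl2l11 from -0.38 to 0.08, Bid from -0.2 to 0.11 and Bad from -0.26 to 0.08. In double against PIK3CA mutants Bcl2l1 ranged from -0.34 to 0.2, Bid from -0.12 to 0.05 and Bad from -0.15 to 0.14. In HER2 against PIK3CA mutants Bcl2l1 ranged from -0.26 to 0.34, Bid from -0.14 to 0.17 and Bad from -0.06 to 0.22. For the interaction Bax ranged from -0.33 to 0.25 and Bad from -0.05 to 0.3.

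Over all genes, the counts called moved by more than 1.5 times as well. PIK3CA mutants against WT gave 1096, 1869 with DESeq2, 4136 with only the groups compared and 396 to 1043 with 1 sample left out. HER2 mutants against WT gave 2518, 541 with only the groups compared, 4180 without the 3 libraries and 733 to 2693 with 1 sample left out. Double mutants against WT gave 2850, and 1173 to 2961 with 1 sample left out. Double against HER2 mutants gave 606, 1715 with DESeq2, 37 with only the groups compared, 1125 without double mutants 2 and 3, 2049 without the 3 libraries and 256 to 975 with 1 sample left out. Double against PIK3CA mutants gave 163, 661 with DESeq2, 364 with only the groups compared, 652 without the 3 libraries and 17 to 143 with 1 sample left out. HER2 against PIK3CA mutants gave 1069, 2219 with DESeq2, 534 with only the groups compared, 2086 without the 3 libraries and 427 to 1166 with 1 sample left out. The interaction gave 257, 966 with DESeq2, 998 without double mutants 2 and 3, 1986 without the 3 libraries and 54 to 382 with 1 sample left out. Of the genes called in double against HER2 mutants 41.1% were higher, against 30.2% with upper-quartile scaling, 55.6% with limma and 56.4% without double mutants 2 and 3, and in HER2 against PIK3CA mutants 50.1%, against 61.1% with the offset.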

Other observations

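Summed per kilobase of exon, the 5 BH3-only genes lay between 44.8 and 48.9 CPM per kb in WT, 47.9 and 59.3 in PIK3CA mutants, 50.9 and 65.6 in HER2 mutants, and 45 and 61.6 in double mutants. The 4 HER2 mutants were all above the 3 WT samples on this sum, which holds the called genes Bmf and Bbc3. From WT to HER2 mutants the mean went from 3.21 to 12.8 for Bmf and from 9.41 to 16 for Bbc3. The means of Bcl2l11 (19.8 to 16.9), Bid (8.22 to 7.12) and Bad (6.08 to 5.68) went the other way, so the sum shows no rise of the class. The 2 effectors summed to 20.3 to 23 CPM per kb in WT and 24.5 to 54.7 in HER2 mutants, and the 3 pro-survival genes to 59.3 to 87.5 in WT and 50.1 to 112 in HER2 mutants, where the groups overlapped. The level of Bax per length was 1.34 to 1.74 times that of Bcl2 in WT, 0.717 to 1.35 times in PIK3CA mutants, 1.52 to 6.93 times in HER2 mutants and 2.15 to 3.82 times in double mutants, and the double mutants did not overlap either WT or PIK3CA mutants. The level of Bcl2l1 per length was 12.4 and 9.65 times that of Bcl2 in double mutants 2 and 3 and 2.09 to 2.48 times in the other 3. HER2 mutants 2 and 3 showed similar ratios of 7.06 and 10.1, against 3.82 and 2.69 in HER2 mutants 1 and 4.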
